A study of Mus musculus with 12 samples.

Results

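Expression of 10 genes of lipoprotein metabolism was measured in mice labelled as lacking a microRNA cluster. The genes are Apoa1, Apoa2, Apoa4, Apoa5, Apob, Apoc1, Apoc2, Apoc3, Apoe and Mttp, which encodes the microsomal triglyceride transfer protein. They were taken by symbol from a table of read counts for 54532 genes, and all 10 were found. The table covers 4 groups with 3 RNA-seq libraries each. KO_liver and WT_liver are livers of mice labelled knockout for miR-322, miR-503 and miR-351 and of wild-type mice, and KO_WAT and WT_WAT are white fat of those genotypes, from the inguinal depot by the protocol. All animals were males aged 52 weeks that had been fasted for 12 hours, and their vessels had been rinsed with cold buffer. The sources used here give neither the strain nor the form of the deleted allele.

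Apolipoproteins are the protein coats of the particles that carry lipid through blood. Liver and gut build triglyceride-rich particles around a single Apob chain, onto which Mttp loads lipid inside the endoplasmic reticulum. The smaller proteins (Apoa1, Apoa2, Apoa4, Apoa5, the Apoc proteins and Apoe) move between particles, where they form the frame of high-density lipoprotein, govern lipases, or serve as ligands for receptors of the liver. Hepatocytes make most of the plasma pool of these proteins, enterocytes make Apob, Apoa1 and Apoa4, and Apoe is also made by macrophages, adipocytes and other cells.

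The microRNAs named in the knockout label are shown first because a microRNA finds its targets by pairing of its seed, here in capitals (bases 2 to 8 of each RefSeq mature sequence, GRCm38.p6). miR-322 and miR-503 share all but the last base of the seed, and miR-351 has an unrelated seed.
miR-322: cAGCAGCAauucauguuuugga
miR-503: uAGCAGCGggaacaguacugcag
miR-351: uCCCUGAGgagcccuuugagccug

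Of the 10 genes, 1 held a match to any of these seeds in its longest annotated 3′ UTR. That was Apoa5, whose protein product promotes triglyceride clearance from plasma. Its 3′ UTR of 1185 bases held 1 match for miR-322 and 2 for miR-351, shown with flanking bases in lower case and the matched bases in capitals, 5′ to 3′ on the plus strand of chromosome 9.
Apoa5 miR-322 match: ccaccaaaggTGCTGCTgtcccaaccta
Apoa5 miR-351 first match: aactcccctaCTCAGGGgcattacactc
Apoa5 miR-351 second match: cctcctgactCTCAGGGtggaactgact

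They start at bases 83, 123 and 626 of the 3′ UTR, and all 3 are 7-base matches to bases 2 to 8 with no A opposite base 1. Among 11436 genes with a 3′ UTR and at least 1 CPM in at least 3 liver libraries, 24.7% held such a match or a longer one for miR-322, 4.9% for miR-503 and 15.9% for miR-351. A match describes the letters only, and Apoa5 had adjusted p = 0.704 between KO_liver and WT_liver in the edgeR test described further on. The other 9 genes had no match, and several of their 3′ UTRs are short, from 64 bases in Apoa1 to 1201 bases in Mttp.

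Several of the genes sit side by side (GRCm38). Apoa1, Apoc3, Apoa4 and Apoa5 lie within 43340 bases of chromosome 9, from 46228580 to 46271919. Apoc2, Apoc1 and Apoe lie within 27610 bases of chromosome 7, from 19671579 to 19699188, all on the minus strand. Apoa2 is on chromosome 1 (171225054 to 171226379), Mttp on chromosome 3 (138089854 to 138144968) and Apob on chromosome 12 (7977648 to 8016835). Counts of some of them may be shared with overlapping genes. For Apoc2, 79.5% of the exon bases, 646 of 813, are also annotated on the same strand to the readthrough gene Gm44805, which had 0 counts in all 12 libraries. The sources used here do not say how reads in such stretches were counted, so the level of Apoc2 is uncertain. Opposite-strand genes cover 69.8% of the exon bases of Apoa4, 20.8% of Apoa5 and 9.5% of Mttp, and the strand setting of the counting is not given either.

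Upstream sequence is shown for 3 genes as examples of behaviour between the tissues: Apob and Apoa5, whose ratio to albumin counts in white fat was 0.35 to 1.71 times that in liver, and Apoe, whose ratio was 9.19 to 113 times. Each run is the 150 bases before a RefSeq start site (GRCm38.p6), with the letters TATAAA in capitals.
Apob, chr12:7977527-7977676, plus strand: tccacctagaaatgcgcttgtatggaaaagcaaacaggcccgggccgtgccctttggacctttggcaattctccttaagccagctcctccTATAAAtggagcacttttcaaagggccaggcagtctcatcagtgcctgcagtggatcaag
Apoa5, chr9:46268458-46268607, plus strand: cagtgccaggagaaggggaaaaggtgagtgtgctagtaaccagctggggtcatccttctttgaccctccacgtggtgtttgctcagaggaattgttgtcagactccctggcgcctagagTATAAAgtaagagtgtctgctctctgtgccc
Apoe, chr7:19699189-19699338, minus strand: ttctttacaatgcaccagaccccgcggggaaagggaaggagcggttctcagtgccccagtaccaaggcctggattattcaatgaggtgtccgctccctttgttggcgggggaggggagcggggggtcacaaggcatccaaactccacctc

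TATAAA starts 60 bases before the RefSeq start used for Apob and 31 bases before that used for Apoa5. These starts differ from the gene starts in the count table. The Apob run ends at 7977676, past its gene start at 7977648, and the Apoa5 run ends at 46268607, before its gene start at 46268633. The sequence shown for Apoe, from the first of its 3 start sites, holds none. RefSeq entries of 250 bases before to 50 bases after a start were matched for 8 of the 10 genes. These are 12 entries, of which 5 held TATAAA on either strand (1 each of Apoa2, Apob and another start site of Apoe, and 2 overlapping ones of Apoa5), against 13.62% of 32851 such entries over all genes. The entries of Apoa1 and Apoa4, whose ratios were 0.64 to 1.67 and 0.22 to 1.38 times those in liver, held none. A link between TATAAA and the levels in the tissues was not tested. The letters CAAAGTCC, a form bound by the hepatocyte factor HNF4A, were found on neither strand for any of the 8, against 1.42% of all entries, and nothing is read from this about the factor.

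Libraries held 14531438 to 15971178 counts, and no 2 of a group agreed within sampling noise (chi-square over degrees of freedom from 9.01 to 69.7), so each was kept as 1 sample. The labels do not say whether these are separate animals, and p-values measure only the spread between the libraries. Mir503 and Mir322 had 0 counts in both KO groups, against 16 and 3 counts in WT_liver and 48 and 37 in WT_WAT. Mir351, also named in the knockout label, went against it, with 41 counts in KO_liver and 9 in WT_liver, and 146 in KO_WAT and 33 in WT_WAT. The 15 hepatocyte markers summed to 128182 to 135869 CPM in KO_liver and 137351 to 144474 CPM in WT_liver. The largest part of this sum was Alb (albumin), with 76229 to 78159 CPM in KO_liver and 87140 to 93137 CPM in WT_liver. As a class the markers did not share that order. Serpina1b and Cyp2e1 were also lower in KO_liver without overlap, Fgb and Cps1 were higher without overlap, and the others overlapped between the genotypes. The 10 adipocyte markers summed to 41331 to 48385 CPM in KO_WAT and 33335 to 45501 CPM in WT_WAT. In liver they summed to 5194 to 6766 CPM in KO_liver and 4733 to 6205 CPM in WT_liver. Over the liver libraries Pck1 had 2565 to 3701 CPM and Car3 2106 to 3128 CPM, while Adipoq was at 0.13 CPM or less in every one. Of the 8 enterocyte markers, 7 were at 0 in all KO_liver libraries and 6 in all WT_liver libraries.

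Together the 10 genes took 3.0 ± 0.34% of all counts in KO_liver, against 3.77 ± 0.11% in WT_liver (mean ± SD, n = 3 each). The 3 KO_liver libraries lay at 3.28%, 3.09% and 2.63%, below the 3.65%, 3.81% and 3.85% of the WT_liver libraries. Apoe alone made up 35.9 ± 4.15% of the genes' counts in KO_liver and 42.6 ± 3.32% in WT_liver. In white fat the 10 genes took 0.345 ± 0.0315% of counts in KO_WAT and 0.256 ± 0.132% in WT_WAT, of which Apoe was 82.2% to 96.9% and 85.6% to 96.4%.

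Per exon length (RPKM, counts scaled to exon length and library total), the genes formed a steep order in liver. Apoa2, Apoe and Apoa1 were at the top, with 6375 ± 430.3, 5069.9 ± 1123 and 4476 ± 964 RPKM in KO_liver and 7072 ± 809, 7524 ± 785 and 6232 ± 822 RPKM in WT_liver. Neighbours in this order overlapped within each group, but in KO_liver every Apoa2 value lay above every Apoa1 value. Apoc1 (1356 ± 91.4 RPKM in KO_liver, 1601 ± 191 in WT_liver), Apoc3 (1060.0 ± 54.0 and 1121 ± 90.2) and Apoa5 (502 ± 9.98 and 545 ± 17.2) followed, without overlap between neighbours. Apob, whose message is the longest of the set at 13934 exon bases, stood at 448 ± 33.8 RPKM in KO_liver and 413 ± 22.7 in WT_liver. Mttp (78.5 ± 6.78 and 80.7 ± 5.14 RPKM), Apoa4 (53.2 ± 23.0 and 72.3 ± 16.2) and Apoc2 (8.91 ± 1.20 and 10.2 ± 2.99) were lowest. Mttp and Apoa4 overlapped in WT_liver but not in KO_liver.

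**Figure D1:**
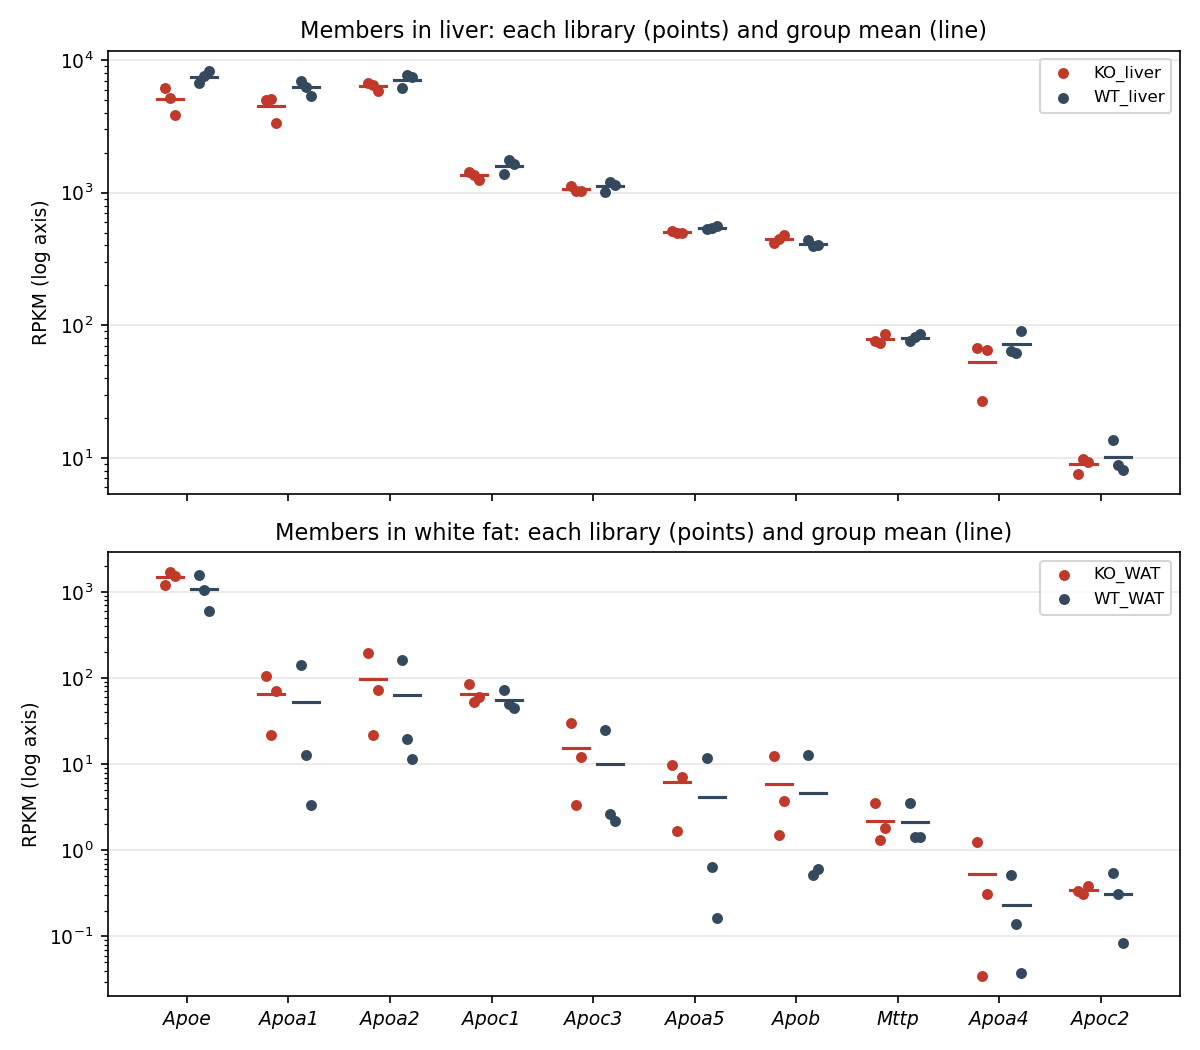
Level of each of the 10 genes in every library, as counts scaled to exon length and library total (RPKM, log axis), in liver (top) and white fat (bottom). Points are single libraries, 3 per group, with KO left of WT, and the lines are group means; Apoe in liver shows no overlap between the genotypes (KO_liver at most 6124, WT_liver at least 6724 RPKM), and white fat libraries of a group differ widely for Apoa1, Apoa2, Apoa5, Apob and Apoc3.

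The first comparison asked whether the knockout livers differed in these genes. None of the 10 passed an adjusted p of 0.05 in edgeR's quasi-likelihood test with Benjamini-Hochberg adjustment over all 13529 genes tested, of which 0.155% passed (14 higher and 7 lower, or 13 and 12 when only library totals were scaled). At an unadjusted p under 0.05, 2 of the 10 were lower in KO_liver, Apoe and Apoa1, against 6.24% of all genes lower. DESeq2 called 1 of the 10 and limma voom 0. Of the 10 log2 fold changes, 9 were below 0 and 1 above, with a median of −0.14, against −0.00052 over all genes tested, 50.1% of which were below 0.

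Apoe, the receptor ligand of remnant particles, had 13093, 11111 and 8314 CPM (counts scaled to the library total) in the KO_liver libraries, against 14376, 16151 and 17730.0 CPM in the WT_liver libraries. Every KO_liver library lay below every WT_liver library, and KO_liver replicate 3 lay furthest below. The means were 10839 ± 2401 CPM in KO_liver and 16086 ± 1678 CPM in WT_liver (SD, n = 3 each), and the log2 fold change was −0.55 ± 0.15 (SE, 95% interval −0.88 to −0.21, adjusted p = 0.237). Leaving out KO_liver replicate 3 brought it to −0.39. Over the alternatives its adjusted p ran between 6.89e-07 and 0.682. It passed in DESeq2 (adjusted p = 0.0344, where 1.19% of genes passed) and in edgeR without a filter on low counts (1.51% passed).

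Apoa1, the main protein of high-density lipoprotein, had 6154, 6284 and 4158 CPM in KO_liver, against 8658, 7815 and 6634 CPM in WT_liver. The groups did not overlap, and KO_liver replicate 3 was again the lowest. Its log2 fold change was −0.45 ± 0.15 (adjusted p = 0.302), and −0.29 without KO_liver replicate 3. It passed only in edgeR without the filter (adjusted p = 0.000283), of all the alternatives tried for this comparison.

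Apoa5 was the third gene without overlap. It had 1294, 1258 and 1245 CPM in KO_liver, against 1335, 1368 and 1421 CPM in WT_liver, a log2 fold change of −0.091 ± 0.090. Over all genes tested, 11.1% had every KO_liver library below every WT_liver library, against these 3 of 10 genes. Apoa2, the second protein of high-density lipoprotein, had 3611, 3494 and 3165 CPM in KO_liver and 3302, 4112 and 3979 CPM in WT_liver. The ranges overlapped (log2 fold change −0.12 ± 0.11). Apoa4, a satiety-linked apolipoprotein that is strongly induced by lipid load in mouse liver, was the most variable of the set. It had 123, 48.5 and 118 CPM in KO_liver and 116, 113 and 165 CPM in WT_liver, and the interval of its log2 fold change ran from −1.55 to 0.72.

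Among the Apoc genes, Apoc1, an inhibitor of lipid uptake and activator of lecithin-cholesterol acyltransferase, had 1070.0, 1020.4 and 936 CPM in KO_liver and 1032, 1308 and 1234 CPM in WT_liver (log2 fold change −0.21 ± 0.11). Apoc3, an inhibitor of lipoprotein lipase, had 1138, 1042 and 1044 CPM in KO_liver and 1035, 1211 and 1165 CPM in WT_liver (−0.055 ± 0.099). Apoc2, the activator of lipoprotein lipase, had 6.14, 7.97 and 7.63 CPM in KO_liver and 11.1, 7.21 and 6.62 CPM in WT_liver (−0.17 ± 0.22). All 3 overlapped between the genotypes. The 95% intervals exclude a log2 fold change beyond −0.45 for Apoc1 and −0.27 for Apoc3 on the lower side.

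Apob and Mttp take part in building the particle. Apob had 5791, 6196 and 6729 CPM in KO_liver, against 6123, 5535 and 5627 CPM in WT_liver, and was the only one of the 10 with a log2 fold change above 0 (0.14 ± 0.096, adjusted p = 0.569). KO_liver replicate 3, lowest of all 6 libraries for Apoe and Apoa1, was highest for Apob. Mttp had 470.2, 456 and 535 CPM in KO_liver and 469, 502 and 532 CPM in WT_liver. Its log2 fold change was −0.013 ± 0.10, with an interval from −0.24 to 0.21.

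**Figure D2:**
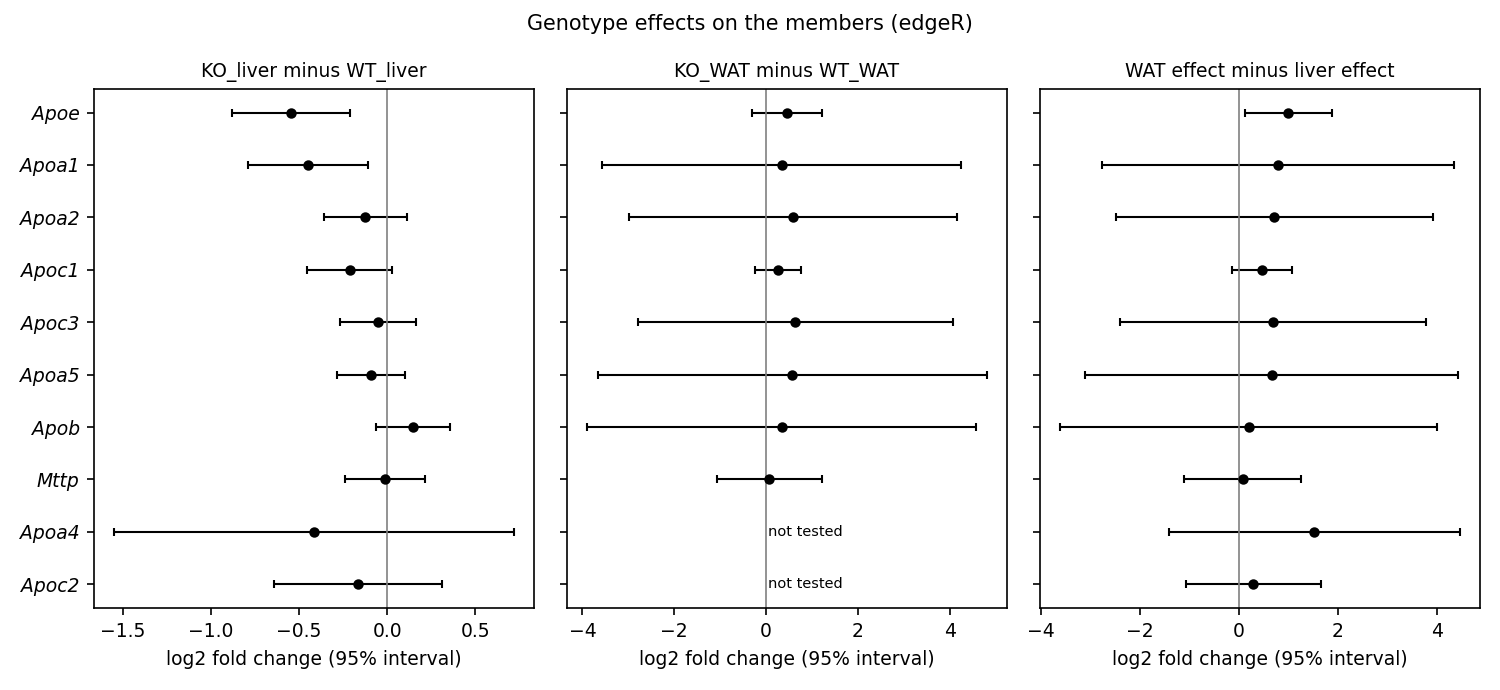
Log2 fold changes of the 10 genes with 95% intervals from edgeR, as KO_liver minus WT_liver (left), KO_WAT minus WT_WAT (middle) and the white fat effect minus the liver effect (right); horizontal scales differ between panels. No gene passed an adjusted p of 0.05 in these 3 comparisons. Intervals in liver are widest for Apoa4 (−1.55 to 0.72), followed by Apoc2 (−0.64 to 0.31). Those in white fat span several log2 units for Apoa1, Apoa2, Apoa5, Apob and Apoc3.

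Base composition moved with the liver fold changes. Over the tested genes, the log2 fold change between KO_liver and WT_liver correlated with the GC share of the longest transcript (Spearman rho = −0.435; genes are no independent replicates). Apob and Mttp had the lowest GC shares of the set, 43.5% and 45.9%, and the other 8 genes lay between 51.9% (Apoa2) and 59.5% (Apoe). Once a smooth trend on GC share and on length had been taken out of every library, the log2 fold change of Apoe was −0.34 ± 0.11 (adjusted p = 0.426) and that of Apoa1 was −0.32 ± 0.13 (adjusted p = 0.579). Apob was then at 0.035 ± 0.082, and Apoa5 and Apoc3 were above 0, at 0.050 and 0.076.

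**Figure D3:**
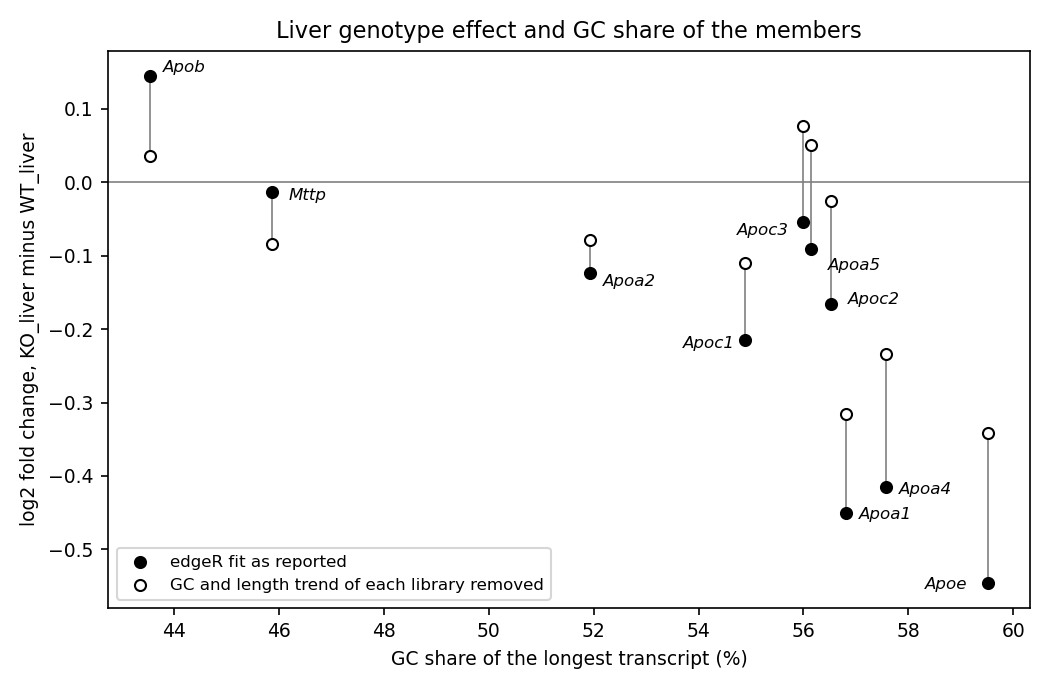
Log2 fold change of each gene, KO_liver minus WT_liver, against the GC share of its longest transcript in percent. Filled circles are the edgeR fit as reported and open circles the fit with the GC and length trend of each library removed, joined by lines; the spread from Apoe (−0.55) to Apob (0.14) narrows to −0.34 to 0.076.

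In white fat the genes split by whether their ratio to albumin, a hepatocyte transcript, stayed near that in liver. Alb itself had 1977, 228 and 731 CPM in KO_WAT and 1863, 125 and 76.8 CPM in WT_WAT, so replicate 1 was highest in both groups. The 15 hepatocyte markers summed to 2497 to 5135 CPM in KO_WAT and 956 to 5833 CPM in WT_WAT, and none was at 0 throughout a group. Much of this sum was Cyp2e1, a cytochrome P450, with 1824, 2871 and 1248 CPM in KO_WAT and 2699.6, 1571 and 735 CPM in WT_WAT, which did not keep the order of Alb in KO_WAT. The other 14 markers, Alb among them, summed to 3311, 501 and 1248 CPM in KO_WAT and 3133, 301 and 220 CPM in WT_WAT. These sums kept the order of Alb in both groups, in part because they include Alb. Trf, 1 of the 14, kept it in neither group, with 133, 98.2 and 63.9 CPM in KO_WAT and 131, 93.8 and 94.8 CPM in WT_WAT. In bulk tissue, fewer cells of a type and less RNA per cell cannot be told apart.

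Apob had 174, 20.8 and 52.0 CPM in KO_WAT and 180.5, 7.20 and 8.40 CPM in WT_WAT. Apoa1 had 129.9, 27.2 and 87.6 CPM in KO_WAT and 175, 15.6 and 4.20 CPM in WT_WAT. Both were highest in the replicate 1 libraries, where Alb was highest. Relative to the Alb counts of each white fat library, and to the ratio that the liver of the same genotype had, Apob stood at 0.88 to 1.13 times that ratio in KO_WAT and 0.90 to 1.71 times in WT_WAT. Apoa1 stood at 0.92 to 1.67 times in KO_WAT and 0.64 to 1.46 times in WT_WAT. Apoa2, Apoa5 and Apoc3 lay between 0.76 and 1.49 times in KO_WAT and 0.35 and 2.26 times in WT_WAT, and Apoa4 rested on 43 counts in KO_WAT and 20 in WT_WAT. The lowest values were 0.22 times for Apoa4 in KO_WAT replicate 2, which held 1 count, and 0.35 times for Apoa4 in WT_WAT replicate 1 and for Apoa5 in WT_WAT replicate 3, which held 15 and 6 counts.

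Apoe was different. It had 2553, 3602 and 3270.0 CPM in KO_WAT and 3402, 2258 and 1293 CPM in WT_WAT, and the ranges overlapped. KO_WAT replicate 1, highest of its group in Alb, was lowest in Apoe, while WT_WAT replicate 1 was highest in both. Its counts were 9.19 to 113 times the liver ratio to Alb in KO_WAT and 10.2 to 101 times in WT_WAT. What lay above the liver ratio was 3004 ± 662 CPM in KO_WAT and 2194 ± 895 CPM in WT_WAT. The library lowest in Apoe, WT_WAT replicate 3, had the highest sum of the 12 macrophage markers (3222 CPM, against 1212 to 2958 in KO_WAT and 1522 and 2009 in the other WT_WAT libraries). It also had the lowest adipocyte marker sum (33335 CPM). The part of either in the Apoe level was not tested.

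Apoc1 (2.16 to 32.8 times) and Mttp (1.75 to 20.9 times) also exceeded the liver ratio in every white fat library. This was not particular to them, since Apoa2 (1.10 to 2.02 times), Apoc3 (1.07 to 2.26 times) and Apoc2 did so too. The log2 CPM of Apoc1 and Mttp still followed Alb over the 6 white fat libraries, at r of 0.96 and 0.91, against 0.88 for Apoa4 and 0.62 for Apoe. Apoc1, the Apoe neighbour on chromosome 7, had 63.1, 39.4 and 44.6 CPM in KO_WAT and 53.5, 37.1 and 33.4 CPM in WT_WAT, 2.44 to 13.3 times the ratio in KO_WAT and 2.16 to 32.8 times in WT_WAT. The excess was nearly constant, at 36.3 ± 1.09 CPM in KO_WAT and 32.2 ± 3.32 CPM in WT_WAT, and its ranges overlapped (35.1 to 37.2 and 28.8 to 35.4 CPM). Mttp, the lipid transfer protein, had 21.8, 8.24 and 11.3 CPM in KO_WAT and 21.9, 8.83 and 8.95 CPM in WT_WAT. Its excess over the liver ratio was 7.59 ± 1.48 CPM in KO_WAT and 9.37 ± 1.82 CPM in WT_WAT. Apoc2 had 1 to 7 counts a library in white fat and is not read further.

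**Figure D4:**
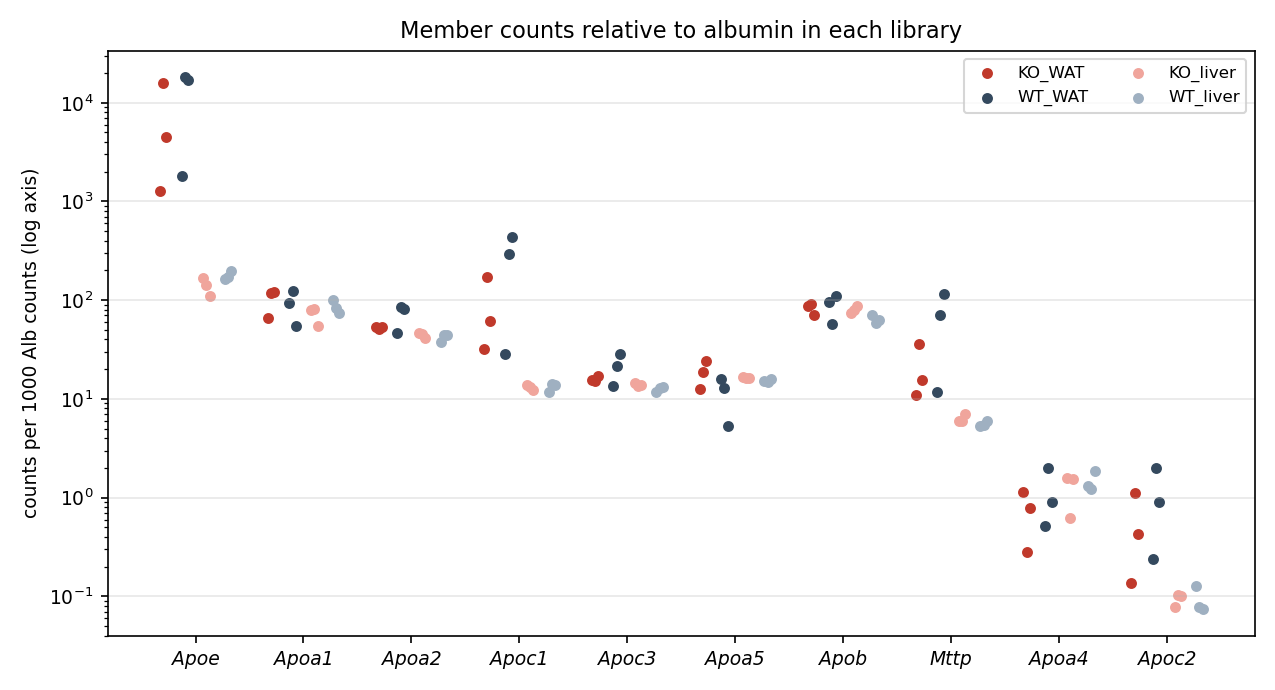
Counts of each gene per 1000 Alb counts (log axis) in every library, with KO_WAT, WT_WAT, KO_liver and WT_liver from left to right within a gene. For Apoa1, Apoa2, Apoa4, Apoa5, Apob and Apoc3 the white fat libraries lie between 0.22 times (Apoa4) and 2.26 times (Apoc3) the liver ratio. All 6 white fat libraries of Apoe, Apoc1 and Mttp lie above every liver library (Apoe 1292 to 18095 per 1000 Alb counts in white fat, 109 to 199 in liver). Those of Apoa2 do so by little (46.7 to 85.3 in white fat, 37.9 to 46.2 in liver), and those of Apoc2 rest on 1 to 7 counts.

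Between the genotypes in white fat, 8 of the 10 genes could be tested, since Apoa4 and Apoc2 failed the filter on low counts. None of the 8 passed in edgeR, as was true of all 15919 genes tested (0% passed, and 7.64% had an unadjusted p under 0.05; DESeq2 called 43 genes and limma voom 0). None had an unadjusted p under 0.05, and DESeq2 and limma voom called 0 of the 8 as well. All 8 log2 fold changes were above 0, with a median of 0.40, against −0.0027 over all genes tested, 49.6% of which were above 0. The tested genes near the liver ratio to Alb had standard errors above 1, from Apoc3 (0.64 ± 1.30) to Apob (0.34 ± 1.60). Apoe was at 0.46 ± 0.33 (adjusted p = 0.738) and Apoc1 at 0.26 ± 0.22, and the interval of Apoc1 ran from −0.25 to 0.77. Mttp was at 0.074 ± 0.48. When single libraries were left out, Apoe ran from 0.17 without WT_WAT replicate 3 to 0.82 without WT_WAT replicate 1, and Apoc1 from 0.045 without KO_WAT replicate 1 to 0.47 without WT_WAT replicate 1.

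The white fat values depended on which libraries entered. Without WT_WAT replicate 1, a library high in Alb, the log2 fold change of Apoa1 was 3.02 and that of Apob 3.38, and 5 of the 8 genes, Apoe and Apoc1 among them, had an unadjusted p under 0.05, though none passed the adjustment. With log2 Alb CPM as a covariate, Apoa1 was at 0.19 ± 0.37, Apob at −0.059 ± 0.24, Mttp at −0.36 ± 0.22 and Apoe at 0.38 ± 0.31. With the GC and length trend removed, Apoe was at 0.18 ± 0.29; over all genes the white fat log2 fold change correlated with GC share at a Spearman rho of 0.475, opposite in sign to liver.

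Whether the genotype effect differed between the tissues was tested in all 12 libraries, as the white fat effect minus the liver effect. None of the 10 genes passed in edgeR, nor did any of the 16857 genes tested (0%, with 13.4% at an unadjusted p under 0.05; DESeq2 called 199 genes and limma voom 0). Of the 10, limma voom called 0, and DESeq2 called 0 of the 5 for which it gave an adjusted p. All 10 differences were above 0, as were 49.8% of those over all genes. The one with an unadjusted p under 0.05 was Apoe, at 0.99 ± 0.40 (adjusted p = 0.328), which was 0.52 ± 0.35 with the GC and length trend removed. Without the white fat libraries highest in Alb, replicate 1 of each genotype, Apob (2.13 ± 0.45, adjusted p = 0.0289) and Apoa5 passed, as did 4.16% of all genes, and Apoe had adjusted p = 0.0601. Those 2 calls rest on 2 white fat libraries per genotype, in which Alb was 228 and 731 CPM in KO_WAT and 125 and 76.8 CPM in WT_WAT.

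Between the tissues of wild-type mice, all 10 genes were higher in WT_liver than in WT_WAT and passed in edgeR, as did 70.9% of the 15715 genes tested, 33.5% of them higher in WT_liver. The log2 fold change was smallest for Apoe, at 3.63 ± 0.35, with 16086 ± 1678 CPM in WT_liver and 2318 ± 1055 CPM in WT_WAT. Apoc1 (5.68 ± 0.26), Apoc2 (5.78 ± 0.47) and Mttp (6.08 ± 0.43) came next. Apob (7.30 ± 1.8), Apoa2, Apoc3, Apoa1, Apoa5 and Apoa4 (9.05 ± 0.56) had the largest values. In WT_WAT replicate 1, the library highest in Alb of that group, Apob was 180.5 CPM, against 7.20 and 8.40 CPM in the other libraries; without it the Apob value was 10.36. Scaling by library totals alone moved the median of all genes to −0.88, against −0.055, and Apoe to 2.79. It moved the share of called genes that were higher in WT_liver to 22.0%, against 47.3%. DESeq2 called 5 of the 5 genes for which it gave an adjusted p, and 70.8% of all genes.

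The rest of the pathway was read from 4 lists. Between KO_liver and WT_liver, edgeR called none of 24 assembly and secretion genes, none of 12 other apolipoproteins, none of 22 lipases, remodelling factors and receptors, and none of 26 transcriptional regulators tested. At an unadjusted p under 0.05 the counts were 2 higher and 1 lower, 6 and 1, 1 and 3, and 1 and 6, in that order, against 5.97% of all genes higher and 6.24% lower. DESeq2 called Saa4 and Saa1 higher in KO_liver and no other gene of the 4 lists, and limma voom called 0. In the list of other apolipoproteins, Saa1, an acute-phase protein of high-density lipoprotein, had 21.6 ± 1.65 CPM in KO_liver and 12.1 ± 4.08 CPM in WT_liver (log2 fold change 0.87 ± 0.21, adjusted p = 0.169). Saa4, its constitutive relative, had 314 ± 13.3 CPM in KO_liver and 246 ± 11.8 CPM in WT_liver (0.38 ± 0.094, adjusted p = 0.162). Saa1 and Saa2 are near-identical in sequence, so their counts are uncertain. Without the filter on low counts Saa1, Saa4 (adjusted p = 0.0302) and Lpl (adjusted p = 0.0150) passed, as did 1.51% of all genes, and Saa1 passed without WT_liver replicate 2 (1.19, adjusted p = 0.0349).

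Among lipases and receptors, Lpl, lipoprotein lipase, had 11.2 ± 0.55 CPM in KO_liver and 6.72 ± 2.16 CPM in WT_liver (0.77 ± 0.21, adjusted p = 0.210), and Scarb1, the receptor of high-density lipoprotein, 145 ± 9.71 CPM in KO_liver and 181 ± 24.6 CPM in WT_liver (−0.29 ± 0.11, adjusted p = 0.327). Among regulators, Creb3l3, a liver activator of Apoa4 and Apoc2 in mice, had 386 ± 28.1 CPM in KO_liver and 492 ± 38.8 CPM in WT_liver (−0.32 ± 0.10, adjusted p = 0.249). Hnf4a, a hepatocyte transcription factor that drives many apolipoprotein genes, also had a value below 0 (−0.27 ± 0.14, adjusted p = 0.447). The medians were −0.017 for assembly and secretion, 0.23 for other apolipoproteins, −0.16 for lipases and receptors and −0.17 for regulators, beside −0.00052 over all genes tested.

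In white fat, edgeR again called none of the 23, 12, 21 and 21 tested genes of these lists. Unadjusted p-values under 0.05 were held by 3, 1, 4 and 2 of them, against 7.64% of all genes, DESeq2 and limma voom called 0, and the medians were −0.018, 0.39, 0.014 and 0.20, beside −0.0027 over all genes. Srebf1, a regulator of lipid synthesis, had 533 ± 105 CPM in KO_WAT and 317 ± 59.7 CPM in WT_WAT (0.77 ± 0.20, adjusted p = 0.649). Dgat2, an enzyme of triglyceride synthesis, had 2261 ± 274 and 1362 ± 566 CPM (0.75 ± 0.32, adjusted p = 0.649), and Angptl8, an inhibitor of lipoprotein lipase, 5.42 ± 1.32 and 2.33 ± 0.08 CPM (1.23 ± 0.29, adjusted p = 0.613). For the difference between the tissues, edgeR and limma voom called none of the lists' genes either. Unadjusted p-values under 0.05 were held by 3, 1, 5 and 5 of the 24, 13, 22 and 26 genes tested, against 13.4% of all genes, and the medians were 0.027, 0.33, 0.22 and 0.44, beside −0.0022 over all genes. DESeq2 called 3 genes, all of the lipase and receptor list: Scarb1 and Angptl8 above 0 and Abca1, a cholesterol exporter, below 0. In edgeR Scarb1 (0.76 ± 0.19, adjusted p = 0.214), Saa1 (2.34 ± 0.66), Cebpb (0.80 ± 0.23) and Dgat1 (0.38 ± 0.16) had the lowest p of their lists. The Saa1 value rests on white fat levels near the floor, 0.89 ± 0.22 CPM in KO_WAT and 0.088 ± 0.076 CPM in WT_WAT. Without replicate 1 of KO_WAT and WT_WAT, Scarb1 (0.99 ± 0.18, adjusted p = 0.0198), Cebpb (0.97 ± 0.21, adjusted p = 0.0302), Cebpa, Apoc4 and Hnf4a passed, as did 4.16% of all genes.

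Between WT_liver and WT_WAT, 16 of 24 assembly and secretion genes were called higher in WT_liver and 5 lower, 11 of 13 other apolipoproteins higher and 1 lower, 12 of 22 lipases and receptors higher and 9 lower, and 23 of 26 regulators higher and 2 lower. Of all genes, 33.5% were called higher and 37.3% lower. The medians were 1.24, 7.32, 0.85 and 3.08, beside −0.055 over all genes. Tm6sf2, which adds lipid to particles in hepatocytes, had 41.0 ± 8.83 CPM in WT_liver and 0.805 ± 0.32 CPM in WT_WAT. Soat2, which esterifies cholesterol for packaging, had 55.7 ± 2.10 CPM in WT_liver and 1.52 ± 0.73 CPM in WT_WAT. Sort1, a sorting receptor that binds Apob, ran the other way, with 8.01 ± 1.98 CPM in WT_liver and 634 ± 90.4 CPM in WT_WAT, as did Lpl, with 6.72 ± 2.16 CPM in WT_liver and 11061 ± 2329 CPM in WT_WAT.

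Over the 6 liver libraries the genes fell into a pattern that is given as a description, since the libraries include both genotypes and share their depth. Log2 CPM of Apob correlated at −0.92 with Apoe, −0.93 with Apoa2 and −0.93 with Apoc1, and Apoa2 and Apoc1 at 0.97 with each other. Apoa5 and Apoe correlated at 0.93. The pairs named are among the strongest of the set, and Apob correlated at 0.042 with Mttp and 0.40 with Apoc2. Of 11362 protein-coding genes compared, those most like Apoe were Aamp, Mxd4 and Lmf1, with r of 0.998, 0.995 and 0.994, and those most like Apob were Fam91a1, Rbm43 and Smad1, with r of 0.987, 0.985 and 0.981.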

How the data were processed

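A directional NEBNext kit was used on 2 µg of TRIZOL-extracted total RNA, per the labels' protocols. CASAVA 1.8 and HISAT2 and the builds GRCm38 and mm10 are named, per the submitters' processing notes. The sources used here name no counting program, strand setting or annotation release. The deposited file holds whole-number read counts per Ensembl gene, 1 column per library, which the authors left unnormalised as far as the values show. Of 54532 rows, 54409 were found in GENCODE M21 (GRCm38), from which exon overlaps, GC shares and 3′ UTRs were read.

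Groups came from the sample titles. From the counts, CPM and RPKM were computed, and tests were run with edgeR 4.0.16 in R 4.3.3, after filterByExpr, with TMM factors, the quasi-likelihood F test in its robust form and a Benjamini-Hochberg adjusted p under 0.05, each tissue fitted by itself, the difference between tissues in all 12 libraries, and WT_liver against WT_WAT in those 6. Adjusted p-values come from edgeR where no other tool is named. Alternatives were DESeq2 1.42.0, limma voom (limma 3.58.1), other scaling factors, other filters, no robust step, a replicate block, removal of a GC and length trend, a covariate of log2 Alb, and libraries left out. On simulated counts with known changes, the fits were checked for direction and false calls. Replicate numbers were not taken as pairs. The sample titles do not say whether liver and white fat libraries of the same number came from the same animal. Apart from the replicate block, tests that span both tissues treated them as unpaired.

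The liver ratio to Alb is the summed count of a gene over that of Alb in the liver libraries of the same genotype. The 10 genes, the lists of the pathway and the marker lists were chosen with earlier results of these data known. All 10 genes are named, with Hnf4a, up to 4 genes per list and comparison among those of lowest unadjusted p, and the 3 genes most like Apoe and Apob. Intervals cover the spread between libraries. Some genes that this rule names are not reported here.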

Additional observations from a re-analysis of the deposited data

How the results depend on the processing

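For the 10 genes between WT_liver and WT_WAT, direction and call held under every alternative that gave an adjusted p; DESeq2 gave one for 5 genes and called 5. In liver the count of called genes among the 10 was 0 and became 2 without the filter on low counts (Apoe and Apoa1) and 1 with DESeq2 (Apoe). For the difference between tissues it was 0 and became 2 without the white fat libraries highest in Alb. Counts over all genes moved more. In liver 21 genes passed, against 378 without the filter, 139 with DESeq2, 3 without the robust step, 4 with the GC and length trend removed, 1 with all 12 libraries in a single fit, and 5 to 34 when single libraries were left out. In white fat 0 passed, against 43 with DESeq2, 29 without the filter and 3 with all 12 libraries; for the difference 0 passed, against 199 with DESeq2, 21 without the filter, 713 without the libraries highest in Alb and 0 to 34 when single libraries were left out. Upper quartile factors moved the median of all genes between WT_liver and WT_WAT to −0.23, and the GC and length trend moved it to 0.17. The causes were not tested.

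Removing the GC and length trend turned these log2 fold changes round: in liver Apoa5 (0.050) and Apoc3 (0.076), in white fat Kif5b (0.040) and Clu (−0.062), and for the difference Apoc2 (−0.067) and Cebpb (−0.050). The Alb covariate turned round Apoa2 (−0.15), Apob (−0.059), Apoc3 (−0.071) and Mttp (−0.36) in white fat. Leaving out single libraries gave signs of both kinds for Mttp (−0.097 to 0.038) and Apoc2 (−0.30 to 0.084) in liver. In white fat it did so for Apoa1 (−0.22 to 3.02), Apoa2 (−0.44 to 2.60), Apob (−0.82 to 3.38), Apoc3 (−0.33 to 2.65), Mttp (−0.41 to 0.62) and Hnf4a (−0.35 to 3.55). For the difference it did so for Apoa2 (−0.31 to 2.77), Apob (−0.96 to 3.29), Apoc3 (−0.26 to 2.75), Mttp (−0.38 to 0.69), Apoc2 (−0.10 to 0.96) and Hnf4a (−0.083 to 3.86). TMM factors over all 12 libraries moved the summed CPM of the 10 genes to 39558 in KO_liver (from 29974 by library totals), 48339 in WT_liver (from 37691), 2668 in KO_WAT (from 3452) and 1951 in WT_WAT (from 2558). With 8-base seed matches only, 0 of the 10 genes held a match.

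Same-numbered libraries of KO_liver and WT_liver had correlations of their deviations from the group means of −0.062, −0.067 and 0.082, and those of KO_WAT and WT_WAT 0.061, 0.16 and 0.066, so the numbers were not taken as pairs. With the replicate number as a block, the count of called genes among the 10 stayed at 0 in liver, in white fat and for the difference, and at 10 between WT_liver and WT_WAT, and 28 of all genes passed in liver.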
